A study of Mus musculus with 6 samples.

Results

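The genes described here make prostaglandins or receive them: 2 cyclooxygenases (Ptgs1, Ptgs2), 3 prostaglandin E synthases (Ptges, Ptges2, Ptges3), the prostacyclin synthase Ptgis, 2 prostaglandin D synthases (Ptgds, Hpgds) and 2 receptors (Ptgfr, Ptger4). They were taken by symbol from the gene lines of a count table, 10 of 45808, by a rule that uses no measured value, though earlier results of these data were known when the symbols were picked. RNA came from 6 libraries of wild-type (WT) mouse cells: the stromal-vascular fraction, in which the precursors of fat cells lie, of inguinal white fat from male mice aged 8 weeks. The series, whose title names Naa10p and heat production by beige fat, followed these cells during beige adipocyte induction, and only wild-type libraries were analysed here. At day 0 the cells were confluent and had received no induction medium. Day 2 cells had spent 2 days with 125 µM indomethacin, which inhibits cyclooxygenases, 0.5 mM IBMX, which blocks phosphodiesterases, and 5 µM dexamethasone, a glucocorticoid. Their medium also held 850 nM insulin, 1 nM of the thyroid hormone T3 and 1 µM rosiglitazone, which activates PPAR gamma. Day 6 cells had then been kept in maintenance medium, with insulin, T3 and rosiglitazone at those doses and without IBMX, dexamethasone and indomethacin. Medium and time changed together, so their effects on any gene cannot be told apart in this design.

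Prostaglandins are lipid signals made from arachidonic acid that phospholipases release from membranes. The cyclooxygenases, the enzymes that indomethacin inhibits, turn arachidonic acid into prostaglandin H2, from which terminal synthases make prostaglandin E2, prostacyclin, prostaglandin D2 and others that act on G protein-coupled receptors. In fat, prostaglandin F2 alpha acting on the receptor encoded by Ptgfr is known to restrain the conversion of precursors into adipocytes, while prostacyclin is known to favour it.

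Each day had 2 libraries, numbered 76 and 77 in the titles. The series calls them biological replicates, but the sources used here do not say if separate mice or cultures stand behind them, so p-values speak only of the spread between libraries, which may be technical. Counts in genes ranged from 22522221 to 29458374 per library. Levels are CPM, each count relative to its library's size after TMM scaling, and a library with 0 counts of a gene allows up to 3 counts, 0.0994 to 0.150 CPM. Changes are log2 ratios with a standard error (SE) from edgeR's quasi-likelihood test, with p-values adjusted by Benjamini-Hochberg over the 14459 genes tested and a threshold of 0.05. Summed levels of 8 adipocyte markers were 817 to 934 CPM at day 0, 9209 to 9703 at day 2 and 42427 to 50434 at day 6. For 8 markers of precursors and fibroblasts the sums were 28360 to 32884, 4171 to 4499 and 3293 to 5156 CPM. Most of that second sum was Col1a1, with means of 28438, 2805 and 3188 CPM. Against day 0, 5 of these 8 passed the threshold as lower at day 2 and 7 at day 6, and none as higher. In bulk RNA, fewer cells of a type and less RNA per cell cannot be told apart.

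Both cyclooxygenase genes fell while the cells were in the indomethacin medium and then parted: Ptgs1 came partly back by day 6 and Ptgs2 fell further. Of the 10 genes, 9 had enough counts to be tested, and all 9 passed the threshold between day 2 and day 0, 4 higher and 5 lower. In that comparison 67.1% of all genes tested were called, 33.6% higher and 33.6% lower. Against day 0, day 6 also had 4 of the 9 higher and 5 lower, where 70.9% of all genes were called, 35.9% higher and 35.1% lower. Between day 6 and day 2, 4 were higher, 3 lower and 2 did not pass, where 65.7% of all genes were called, 38.2% higher and 27.5% lower. All 9 differed between some of the days in a joint F test, which called 84.8% of all genes. The median size of their log2 change, whatever its sign, was 1.33, 1.89 and 1.24 in the 3 comparisons, and over all genes tested it was 0.60, 0.72 and 0.61. Hpgds passed the filter on low counts only through its day 6 level, so its calls are not independent of the filter.

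**Figure D1:**
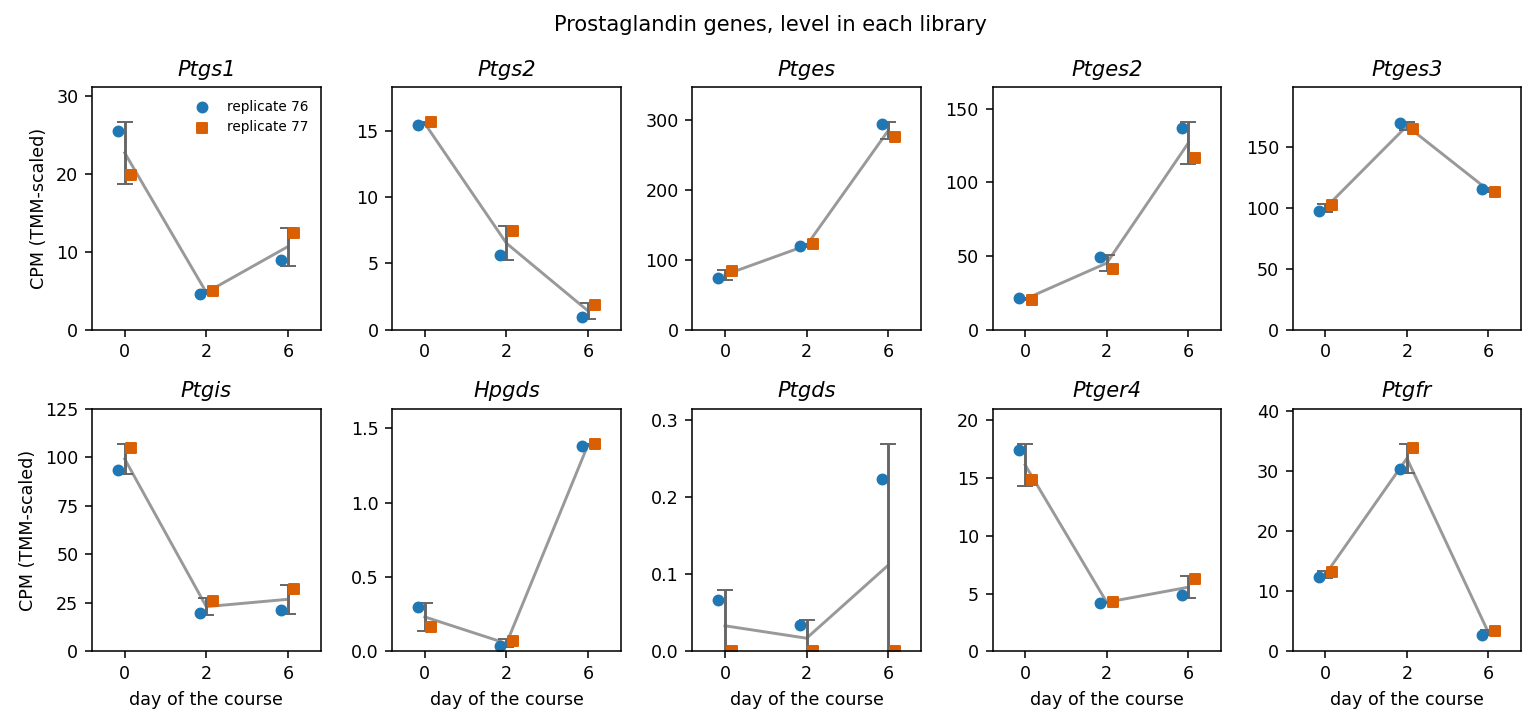
Level in CPM (linear axis from 0, its own scale in each panel) of the genes in each library at days 0, 2 and 6; circles are replicate 76, squares replicate 77, grey lines the mean and bars the SD of 2 libraries. Ptges and Ptges2 climb over both steps, Ptgfr peaks at day 2, and Ptgs1, Ptgs2, Ptgis and Ptger4 sit highest at day 0.

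**Figure D2:**
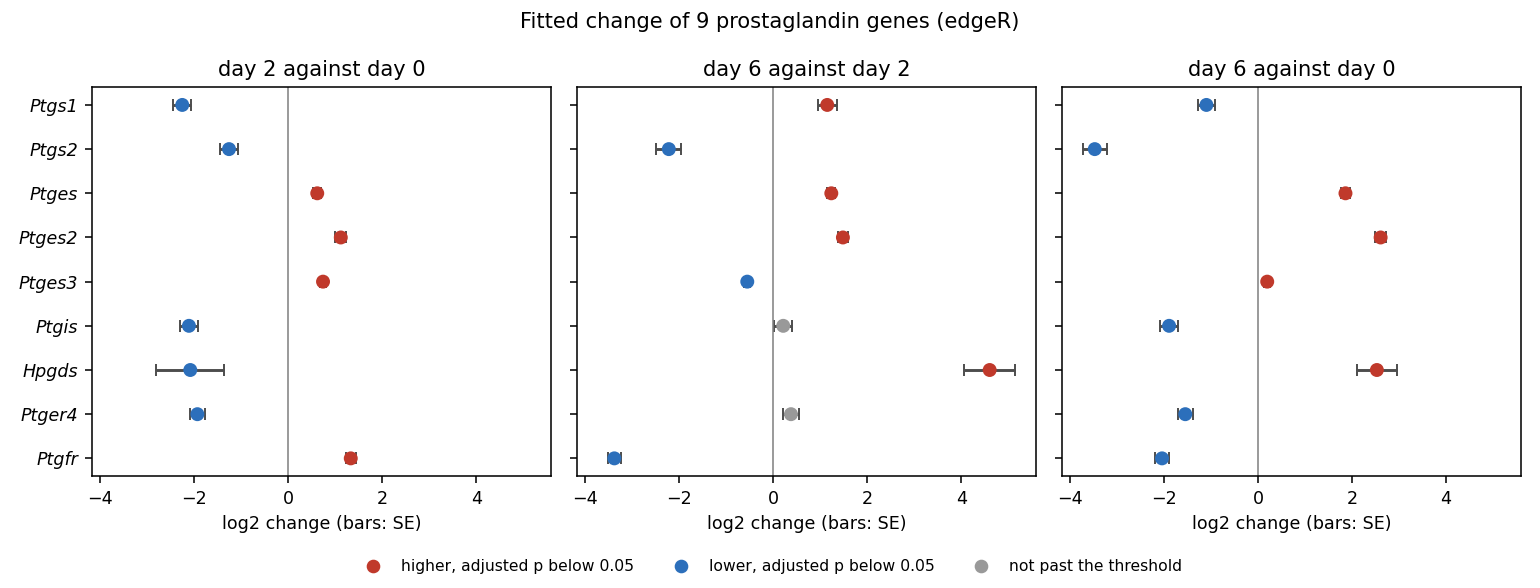
Fitted log2 change of 9 of the 10 genes in each comparison of days, with bars of 1 SE; red points are higher, blue points lower and grey points not past the threshold. Between day 6 and day 2 Ptgfr lies at -3.37 and Hpgds at 4.61, with Ptgis and Ptger4 in grey near 0.

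Ptgs1 encodes cyclooxygenase-1, the form that many tissues make constantly. The gene lies on chromosome 2 (36230426 to 36252272, plus strand, GRCm38, GENCODE M21). Its levels were 25.5 and 19.9 CPM at day 0, 4.59 and 4.96 CPM at day 2, and 8.94 and 12.4 CPM at day 6 (replicates 76 and 77). The libraries of the 3 days did not overlap: day 0 was highest, day 2 lowest and day 6 between them. Day 2 was 4.75-fold below day 0 (log2 -2.25, SE 0.19, edgeR adjusted p = 1.74e-05). Day 6 was 2.22-fold above day 2 (log2 1.15, SE 0.20, edgeR adjusted p = 0.00102) and still 2.14-fold below day 0 (log2 -1.10, SE 0.18, edgeR adjusted p = 0.000612).

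Ptgs2 encodes cyclooxygenase-2, the form induced by cytokines, growth factors and cyclic AMP and repressed by glucocorticoids. It lies on chromosome 1 (150100031 to 150108227, plus strand, GRCm38). Its levels were 15.4 and 15.6 CPM at day 0, 5.61 and 7.41 CPM at day 2, and 0.983 and 1.85 CPM at day 6, the last from 22 and 37 counts. They went down at each step with no overlap between days, and the day 6 libraries, 1.88-fold apart, were the least alike. Day 2 was 2.39-fold below day 0 (log2 -1.25, SE 0.20, edgeR adjusted p = 0.000618), and day 6 was 4.64-fold below day 2 (log2 -2.22, SE 0.27, edgeR adjusted p = 0.000131). From day 0 to day 6 the fall was 11.1-fold (log2 -3.47, SE 0.25, edgeR adjusted p = 5.73e-06). Ptgs2os, an RNA of the opposite strand which overlaps none of its exons and leaves 67 bases to its start, held 0.695 and 0.453 CPM at day 0 and 0.102 and 0.0360 CPM at day 2. It had 0 counts in both day 6 libraries and passed the filter on low counts only through day 0, so no test of it is given.

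The start regions of the 2 cyclooxygenase genes are shown because these genes moved apart after the indomethacin medium was removed. The sequences are the 250 bases before the start from RefSeq (GRCm38.p6, plus strand) and, for Ptgs2, 30 bases just after the start that hold further matches. Capitals mark matches on either strand to the motifs searched: the C/EBP motif TTNNGNAA, the Sp1 motif GGGCGG, the cyclic AMP response element (CRE) TGACGTCA and its core TGACG, the E-box CACGTG, the TATA box TATAAA, and the NF-kB motif, PPAR element, glucocorticoid element and CArG box.
Ptgs1, chr2:36230176-36230425: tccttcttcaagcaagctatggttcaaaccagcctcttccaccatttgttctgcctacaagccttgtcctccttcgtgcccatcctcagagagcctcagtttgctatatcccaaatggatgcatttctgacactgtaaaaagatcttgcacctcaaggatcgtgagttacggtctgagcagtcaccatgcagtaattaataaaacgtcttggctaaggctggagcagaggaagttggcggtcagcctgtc
Ptgs2, chr1:150099781-150100030: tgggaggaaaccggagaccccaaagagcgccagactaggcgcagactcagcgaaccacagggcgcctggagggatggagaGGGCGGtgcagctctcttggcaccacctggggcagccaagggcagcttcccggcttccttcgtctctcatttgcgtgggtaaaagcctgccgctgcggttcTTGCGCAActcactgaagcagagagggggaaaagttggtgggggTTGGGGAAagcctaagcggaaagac
Ptgs2 after the start, chr1:150100033-150100062: agtcaccactaCGTCACGTGgagtccgctt
The Ptgs1 window held no match to any of these motifs. The Ptgs2 window held the Sp1 motif 170 to 165 bases before the start and C/EBP matches at 69 to 62 and at 25 to 18 bases before it. After the start, the CRE core, read on the minus strand, covered bases 14 to 18 and overlapped an E-box at bases 17 to 22. Among 32851 promoter windows of 300 bases, 40.7% held the C/EBP motif, 35.7% the Sp1 motif, 20.8% the CRE core and 7.15% the E-box, on either strand. Of the motifs absent from both windows, the TATA box was in 13.6% of all windows, the full CRE in 1.79%, the CArG box in 1.63%, the glucocorticoid element in 0.475%, the NF-kB motif in 0.155% and the PPAR element in 0.0396%. A match describes letters in these windows and shows no binding. All positions count from the RefSeq start, and where transcription starts in these cells was not tested. A promoter window was listed for 9 of the 10 genes, the exception being Ptgis.

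Per kilobase of exon, the scale on which different genes can be compared, the summed level of Ptgs1 and Ptgs2 was 9.93 and 8.52 CPM per kb at day 0, 2.41 and 2.90 at day 2, and 2.52 and 3.59 CPM per kb at day 6. The day 2 and day 6 sums overlapped, both well below day 0. Within that sum the Ptgs2 share was 33.9% and 40.0% at day 0 (exact 95% intervals 31.4% to 36.6% and 36.8% to 43.3%). The share was 50.9% and 55.9% at day 2 (45.1% to 56.7% and 50.4% to 61.3%). At day 6 it was 8.53% and 11.2% (5.41% to 12.7% and 8.01% to 15.2%). The shares of the 3 days did not overlap, and the intervals, Clopper-Pearson, cover counting error only, since these reads carry no molecular identifiers. With 2 libraries a day an exact permutation test of the share could not reach 0.05, and none was run.

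**Figure D3:**
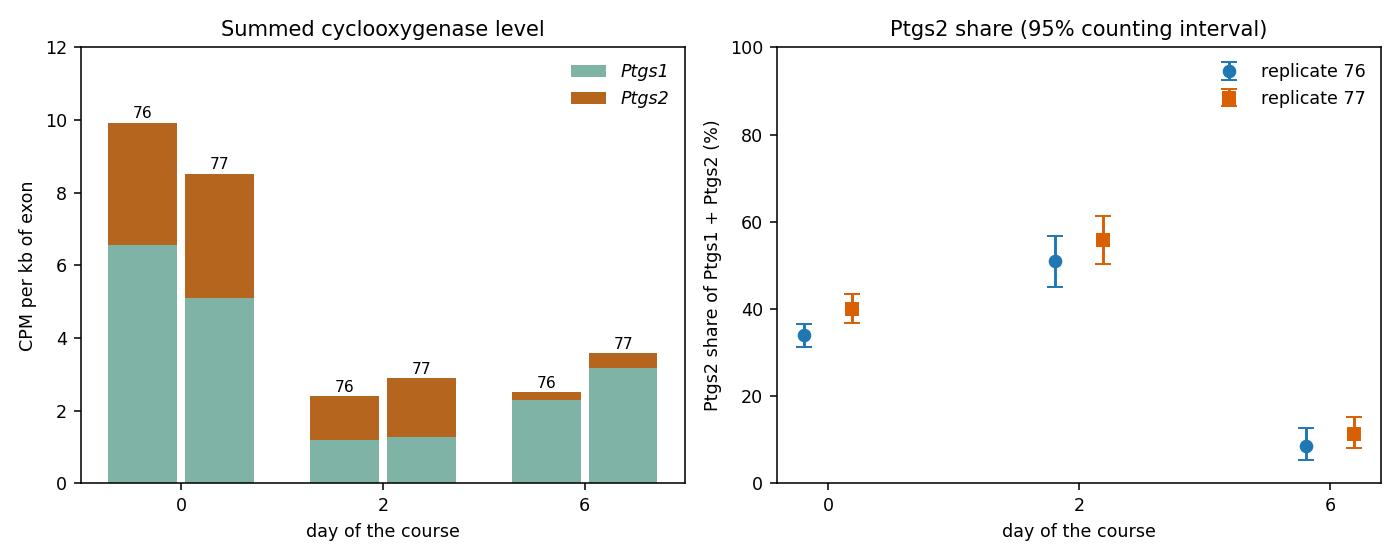
Left, stacked bars of Ptgs1 and Ptgs2 in CPM per kb of exon for each library (left bar replicate 76, right bar replicate 77); right, Ptgs2 share of their sum in percent with exact 95% counting intervals. The summed level drops from day 0 to day 2 and stays low, while the Ptgs2 share is highest at day 2 and near 10% at day 6.

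The prostaglandin E synthases were higher at day 2 than at day 0 in all 3 cases, and 2 of them kept rising after the induction medium was removed. Ptges, the membrane-bound synthase that is known to act with cyclooxygenase-2 and to be induced with it in inflammation, lies on chromosome 2 (30889471 to 30929863, minus strand, GRCm38). Its levels were 73.5 and 83.5 CPM at day 0, 119 and 122 CPM at day 2, and 294 and 276 CPM at day 6. No libraries of different days overlapped, and each later day was higher. Ptges rose 1.54-fold to day 2 (log2 0.62, SE 0.08, edgeR adjusted p = 0.000255) and 3.63-fold to day 6 (log2 1.86, SE 0.09, edgeR adjusted p = 4.26e-07). Over the same days Ptgs2 fell at both steps.

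Ptges2 encodes a further membrane-associated prostaglandin E synthase and lies on the same chromosome (32395896 to 32405772, plus strand). Its levels were 21.3 and 20.3 CPM at day 0, 49.3 and 41.3 CPM at day 2, and 137 and 117 CPM at day 6. Both libraries of each later day stood above both of the day before. It rose 2.18-fold to day 2 (log2 1.12, SE 0.11, edgeR adjusted p = 4.82e-05) and 6.09-fold to day 6 (log2 2.61, SE 0.11, edgeR adjusted p = 3.22e-07). The step from day 2 to day 6 was 2.80-fold for Ptges2 and 2.36-fold for Ptges (edgeR adjusted p = 6.79e-06 and 4.73e-06).

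Ptges3 encodes the cytosolic synthase, also known as the HSP90 co-chaperone p23, and lies on chromosome 10 (128058954 to 128077272, plus strand). Its levels were 97.9 and 102 CPM at day 0, 170.0 and 165 CPM at day 2, and 116 and 113 CPM at day 6. Day 2 was highest and did not overlap the other days, and day 6 lay just above day 0. It rose 1.67-fold to day 2 (log2 0.74, SE 0.07, edgeR adjusted p = 2.5e-05) and was 1.46-fold lower at day 6 than at day 2 (log2 -0.55, SE 0.07, edgeR adjusted p = 0.000135). The day 6 level was 1.15-fold above day 0 (log2 0.20, SE 0.07, edgeR adjusted p = 0.0283), a call lost in 6 of 12 alternative analyses and turned in sign when libraries were scaled by their totals (log2 -0.05). Without replicate 76 of day 0 its edgeR adjusted p was 0.183, and without replicate 77 of day 0 it was 0.0666. Of the 50-base stretches in its transcripts, 19.6% also occur in other genes, so part of its count may depend on how shared reads were assigned.

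Ptgis, which makes prostacyclin and lies on chromosome 2 (167191805 to 167240604, minus strand), fell early and stayed low. Its levels were 93.6 and 105 CPM at day 0, 19.9 and 26.2 CPM at day 2, and 21.4 and 32.2 CPM at day 6. Day 0 was far above the others, and the day 2 and day 6 libraries overlapped. The level was 4.31-fold lower at day 2 (log2 -2.11, SE 0.19, edgeR adjusted p = 2.35e-05) and 3.71-fold lower at day 6 (log2 -1.89, SE 0.19, edgeR adjusted p = 3.36e-05) than at day 0. Between day 6 and day 2 the log2 difference was 0.22 with a 95% interval of -0.23 to 0.66 (edgeR adjusted p = 0.351). That difference hung on single day 6 libraries: it was -0.10 without replicate 77 and 0.49, past the threshold (edgeR adjusted p = 0.0175), without replicate 76. Ptgir, the prostacyclin receptor, held 25.8 and 26.03 CPM at day 0, 13.5 and 14.4 at day 2, and 9.11 and 11.5 CPM at day 6, and was 1.86-fold and 2.52-fold below day 0 (edgeR adjusted p = 0.000183 and 1.94e-05).

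Markers of vessel cells, which are known to make prostacyclin, also moved. The summed level of 10 endothelial markers was 118 to 119 CPM at day 0, 28.5 to 33.7 at day 2 and 30.8 to 46.9 at day 6, and 8 of the 8 tested were lower at day 2 (4 when replicate 76 of day 0 or replicate 77 of day 2 was left out) and 7 at day 6 (4 without replicate 76 of day 0). Of the endothelial markers, Emcn and Tie1 passed the filter on low counts only through day 0, so their calls are not independent of the filter. For 9 mural markers the sums were 679 to 721, 164 to 178 and 337 to 396 CPM. Of these mural markers, 7 were lower at day 2, and 6 were lower and 3 higher at day 6. Single genes made up most of both sums at day 0. Eng held means of 79.0, 23.2 and 16.7 CPM over the days, and Pdgfrb 536, 111 and 139 CPM. The endothelial marker Pecam1 held only 2.86, 1.43 and 1.26 CPM. The part of vessel cells in the fall of Ptgis was not tested.

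The prostaglandin D branch was almost silent before day 6. Ptgds, the lipocalin-type synthase (chromosome 2, 25466709 to 25470046, minus strand), had 2, 1 and 5 counts in replicate 76 at days 0, 2 and 6 and 0 in replicate 77 on each day, too few to test or to compare. Hpgds, the synthase of mast cells, macrophages and other blood-derived cells (chromosome 6, 65117293 to 65144908, minus strand), had 9 and 4 counts at day 0, 1 and 2 counts at day 2, and 31 and 28 counts at day 6. These were 0.298 and 0.165 CPM, 0.0340 and 0.0719 CPM, and 1.38 and 1.40 CPM, so that both day 6 libraries stood apart from the rest. Hpgds passed the filter on low counts only through day 6. Its day 6 calls are thus not independent of the filter, and their p-values are left out. Its level at day 6 was 5.76-fold that at day 0 (log2 2.53, SE 0.42). Against day 2, with 3 counts in all, the ratio of CPM was 26.5 with an exact 95% counting interval of 8.64 to 132. From day 0 to day 2, 13 counts became 3, a ratio of 4.55 with an interval of 1.25 to 24.9 (edgeR adjusted p = 0.0320). That last call was lost in 5 of 12 alternatives, with an edgeR adjusted p of 0.198 without replicate 76 of day 0, 0.148 without replicate 76 of day 2 and 0.0593 without replicate 77 of day 2.

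Markers of the cells known for Hpgds were followed beside it. The summed level of 13 macrophage markers was 50.4 to 58.0 CPM at day 0, 37.4 to 71.4 at day 2 and 68.5 to 170.0 at day 6, where replicate 76 was the higher library. At day 6, 8 of the 12 tested were above day 0 and none below, but only 3 passed without replicate 76 of day 0, 3 without replicate 76 of day 6 and 2 without replicate 77 of day 0. Between the day 6 libraries the macrophage sum differed 2.48-fold, and Lyz2 alone held 83.3 and 35.5 CPM of it (replicates 76 and 77). Of 8 mast cell markers, Mcpt4, Tpsb2 and Fcer1a had 0 counts in all 6 libraries, and the sum was 0.828 to 0.947, 0.899 to 1.09 and 1.20 to 1.38 CPM over the days. The mast cell protease Cpa3 went from 1 and 2 counts at day 0 to 24 and 14 at day 6, while Kit, the stem cell factor receptor, went from 14 and 13 counts to 5 and 5, and Hdc, which makes histamine, from 9 and 7 to 2 and 4. The part of these cells in the Hpgds level was not tested.

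The 2 receptor genes took different courses. Ptgfr, the prostaglandin F2 alpha receptor, lies on chromosome 3 (151796502 to 151837630, minus strand). Its levels were 12.3 and 13.2 CPM at day 0, 30.4 and 33.8 CPM at day 2, and 2.77 and 3.44 CPM at day 6. Day 2 was the peak and day 6 the lowest, with no overlap between days. Ptgfr rose 2.52-fold to day 2 (log2 1.33, SE 0.11, edgeR adjusted p = 1.7e-05) and then fell 10.4-fold to day 6 (log2 -3.37, SE 0.14, edgeR adjusted p = 4.26e-07). At day 6 it was 4.11-fold below day 0 (log2 -2.04, SE 0.14, edgeR adjusted p = 4.23e-06). It had the highest joint F of the 9 genes, 324, followed by Ptges2 with 286. Among all genes tested, the courses closest to that of Ptgfr over the 6 libraries, by Euclidean distance of centred log2 CPM, were those of Bub1b (0.208), Prc1 (0.225) and Cdc20 (0.240). Mean levels of Bub1b, a mitotic checkpoint kinase, were 21.8, 52.8 and 5.50 CPM at days 0, 2 and 6. Closest to Ptges2 were Uqcrh (0.110), a subunit of respiratory complex III with mean levels of 56.6, 126 and 347 CPM, Slc24a3 (0.135) and Atp5o (0.145).

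Ptger4 encodes EP4, a prostaglandin E2 receptor that raises cyclic AMP, and lies on chromosome 15 (5206661 to 5244187, minus strand). Its levels were 17.5 and 14.8 CPM at day 0, 4.22 and 4.28 CPM at day 2, and 4.87 and 6.23 CPM at day 6. Day 0 stood well above both later days, and day 6 lay slightly above day 2. It was 3.80-fold below day 0 at day 2 (log2 -1.93, SE 0.16, edgeR adjusted p = 1.59e-05) and 2.92-fold below at day 6 (log2 -1.55, SE 0.16, edgeR adjusted p = 4.07e-05). Between day 6 and day 2 the log2 difference was 0.38 with a 95% interval of -0.02 to 0.78 (edgeR adjusted p = 0.0841), and it passed the threshold without replicate 76 of day 6 (log2 0.55, edgeR adjusted p = 0.0258). Genes on the same stretch overlap 16.5% of its exon length, and the sources used here do not give the strand setting of the counting. The E synthases Ptges and Ptges2 were thus higher, and this E2 receptor lower, at day 6 than at day 0.

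Ordered per kilobase of exon, Ptges3 (45.2 CPM per kb), Ptgis (38.6) and Ptges (19.97) led at day 0, each apart from the next. Ptgs1 (5.83), Ptges2 (4.11), Ptgs2 (3.39), Ptger4 (2.43) and Ptgfr (1.88) followed, and Hpgds and Ptgds came last with overlapping libraries. At day 2 Ptges3 (75.6) and Ptges (30.7) led, Ptgis (8.97) and Ptges2 (8.95) did not differ beyond their spread, and neither did Ptgs2 (1.42) and Ptgs1 (1.23), with Ptgfr (4.74) between these 2 pairs. At day 6 Ptges (72.4) led before Ptges3 (51.7), Ptges2 (25.1) and Ptgis (10.5), and Ptgs1 was down at 2.74. Ptger4 (0.835) and Ptgfr (0.458) followed, while Ptgs2 (0.309) overlapped Hpgds (0.216). Parts of this order depend on the length used. With the longest transcript as length, the day 0 libraries of Ptges3 and Ptgis overlapped. Mean Ptger4 then stood above Ptges2 and Ptgs2 at day 0, and mean Hpgds above Ptgs2 at day 6. The summed E synthase level was 67.0 and 71.5 CPM per kb at day 0, 117 and 114 at day 2, and 154 and 144 CPM per kb at day 6, above day 0 on both later days, when the cyclooxygenase sum was below it.

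Upstream of the cyclooxygenases, genes that free arachidonic acid were mostly higher. Of 16 phospholipase A2 and lipase genes, 10 were tested: 6 rose and 2 fell at day 2 against day 0, and 7 rose and 2 fell at day 6. The 7 include Pla2g2e, with 5 and 2 counts at day 0 and 11 and 11 at day 6. It passed the filter on low counts only through day 6, so its call is not independent of the filter. The median log2 change of the 10 tested genes was 0.61 and 1.82, while over all genes tested it was 0.00 and -0.01. Mgll, the monoacylglycerol lipase, held 18.5 and 21.0 CPM at day 0, 193 and 182 at day 2, and 879 and 821 CPM at day 6, a rise of 9.50-fold and 43.0-fold (edgeR adjusted p = 2.67e-07 and 1.82e-08). Pla2g16, an adipocyte phospholipase, went from a mean of 26.1 ± 0.773 CPM (SD, n = 2) at day 0 to 174 ± 22.8 and 691 ± 114. Pla2g4a, the cytosolic phospholipase A2 that is known to feed prostaglandin synthesis, went the other way, with 45.3 and 48.3 CPM at day 0, 17.1 and 18.2 at day 2, and 8.94 and 12.7 CPM at day 6. Its falls were 2.65-fold and 4.34-fold (edgeR adjusted p = 3.68e-05 and 3.92e-06), in the same direction as Ptgs2 at each day.

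Of 8 other terminal synthases and reductases, 6 were tested, with 1 higher and 2 lower at day 2 than at day 0, and 4 higher and 1 lower at day 6. Their median log2 change was -0.35 and 0.62, and the day 2 count was 5 when either day 6 library was left out of the fit. Akr1b3, an aldose reductase able to make prostaglandin F2 alpha, held 55.5 and 55.9, 85.9 and 84.7, and 103 and 102 CPM over the days, rising 1.53-fold to day 2 and 1.84-fold to day 6 (edgeR adjusted p = 4.53e-05 and 4.47e-06). Gstm2, a glutathione transferase able to make prostaglandin E2, was 1.94-fold below day 0 at day 2 (edgeR adjusted p = 2.01e-05), where Ptges, Ptges2 and Ptges3 were higher. Cbr1, a carbonyl reductase that converts E to F prostaglandins, and Fam213b, a prostaglandin F synthase, were 2.36-fold and 2.15-fold higher at day 6 than at day 0 (edgeR adjusted p = 1.28e-05 and 3.78e-05). Thus Akr1b3, Cbr1 and Fam213b were higher at day 6 than at day 0, and Ptgfr was lowest at day 6. Akr1c18, of the same list, held 1.09 and 1.07 CPM at day 0 and 0.223 and 0.748 CPM at day 6. It did not pass the joint F test (edgeR adjusted p = 0.256), and Akr1b7 had too few counts to be tested.

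Of 7 other prostanoid receptors, 4 were tested: 3 fell at day 2 against day 0, and 2 rose and 2 fell at day 6, with medians of -0.62 and -0.45 on the log2 scale. Tbxa2r, the thromboxane receptor, held 31.2 and 30.3 CPM at day 0, 0.510 and 0.683 at day 2, and 9.61 and 15.01 CPM at day 6. It fell 51.4-fold to day 2 (log2 -5.68, SE 0.27, edgeR adjusted p = 1.17e-06) and rose 20.5-fold from there to day 6 (log2 4.35, SE 0.29, edgeR adjusted p = 4.1e-06). Ptgfr showed the opposite turn, high at day 2 and low at day 6. Ptger3, a prostaglandin E2 receptor that lowers cyclic AMP, was 0.828 and 1.15 CPM at day 0 and 2.59 and 3.34 CPM at day 6 (3.01-fold higher, edgeR adjusted p = 0.00300), where Ptger4 was lower. Ptger2, Ptgdr and Ptgdr2 had too few counts to be tested.

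Of 6 transport and inactivation genes, all tested, 2 rose and 2 fell at day 2 against day 0, and 4 rose and 2 fell at day 6, with medians of -0.09 and 0.77. Hpgd, which inactivates E and F prostaglandins and whose symbol resembles Hpgds, held 1.62 and 2.22 CPM at day 0, 0.374 and 0.540 at day 2, and 23.7 and 15.01 CPM at day 6. It fell 4.15-fold to day 2 (edgeR adjusted p = 0.00264) and was 10.2-fold above day 0 at day 6 (log2 3.35, SE 0.27, edgeR adjusted p = 1.03e-05). Ptgr2, a reductase of 15-keto prostaglandins, rose 1.52-fold and 4.66-fold (edgeR adjusted p = 0.000610 and 3.27e-07), though another gene overlaps 32.0% of its exons. Slco2a1, the prostaglandin uptake transporter, held 92.9 and 102 CPM at day 0, 76.7 and 71.8 at day 2, and 19.7 and 30.7 CPM at day 6, 3.89-fold lower at day 6 than at day 0 (edgeR adjusted p = 1.57e-05). At day 2 its log2 difference from day 0 was -0.39 (edgeR adjusted p = 0.0547), past the threshold with the replicate number as a block (edgeR adjusted p = 0.0265), without a filter, and in fits without 1 or both day 6 libraries.

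**Figure D4:**
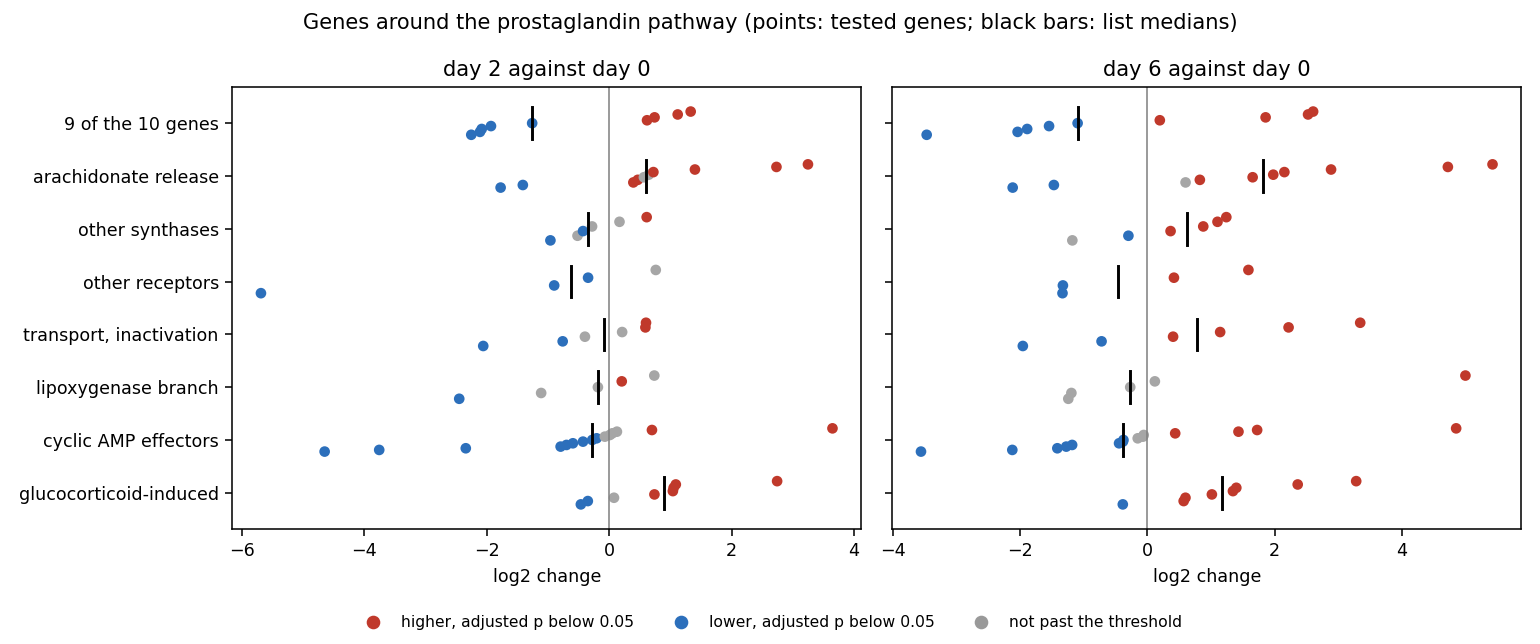
Log2 change of the tested genes of each list around the prostaglandin pathway, day 2 against day 0 on the left and day 6 against day 0 on the right, with the 9 tested synthesis and receptor genes in the top row; red points are higher, blue lower and grey not past the threshold, and black bars are list medians. The bar of the arachidonate release genes moves from 0.61 to 1.82.

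Downstream, 15 of 16 genes of G protein and cyclic AMP signalling were tested, and 2 rose and 9 fell at day 2 against day 0, and 4 rose and 8 fell at day 6, with medians of -0.27 and -0.38. Prkar2b, a regulatory subunit of protein kinase A, held 30.5 and 33.6 CPM at day 0, 405 and 397 at day 2, and 984 and 869 CPM at day 6 (12.5-fold and 29.0-fold, edgeR adjusted p = 2.16e-07 and 1.92e-08). Adcy7, an adenylyl cyclase, fell 13.5-fold to day 2 (31.4 and 27.6 to 2.21 and 2.16 CPM, edgeR adjusted p = 3.97e-07) and was 2.59 and 2.39 CPM at day 6, low on the same days as Ptger4. Rapgef3, the cyclic AMP sensor Epac1, held 7.48 and 6.71 CPM at day 0, 0.204 and 0.360 CPM at day 2, and 2.55 and 3.34 CPM at day 6, a fall of 25.0-fold to day 2 (edgeR adjusted p = 4.58e-06). Of 8 genes that glucocorticoids are known to induce, 5 rose and 2 fell at day 2. At day 6, when dexamethasone had been withdrawn, 7 were above day 0 and Sgk1 below it, and the list medians were 0.89 and 1.18. The 2 below day 0 at day 2 were Sgk1 (1.27-fold, edgeR adjusted p = 0.0331) and Anxa1 (1.38-fold, edgeR adjusted p = 0.00779). Without replicate 76 of day 0 or of day 2 the adjusted p of Sgk1 was 0.215 or 0.214 (edgeR), and without replicate 76 of day 2 or 77 of day 0 that of Anxa1 was 0.0784 or 0.0617. Fkbp5 held 24.5 and 26.7 CPM at day 0, 173 and 170 at day 2, and 287 and 211 CPM at day 6 (6.70-fold and 9.74-fold, edgeR adjusted p = 1.88e-06 and 3.42e-07). Ltc4s, the leukotriene C4 synthase of the neighbouring lipoxygenase branch, held 0.232 and 0.247 CPM at day 0 and 8.40 and 7.18 CPM at day 6. It passed the filter on low counts only through day 6, so its call is not independent of the filter.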

How the data were processed

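The deposited table holds read counts per gene and library. Per the submitters' processing notes, the authors used TopHat2 2.0.13 and HTSeq 0.9.1 with builds mm10 and GRCm38, while the sources used here give neither annotation nor strand setting. Its column names say RPKM, but the values are whole numbers with HTSeq summary lines, so they were used as raw counts. The summary lines, 11.8% to 16.1% of each library's total, stayed out of library sizes and tests. Per the labels' protocols, libraries were made from oligo-dT selected RNA with PCR.

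The genes and lists were chosen with earlier results of these data known. The fit used all 6 libraries with a mean for each day (edgeR 4.0.16 in R 4.3.3, TMM, filterByExpr, quasi-likelihood F test, Benjamini-Hochberg adjustment), which tested 14459 genes and left 31349 untested. The common biological coefficient of variation was 0.0830, with 3 residual degrees of freedom. Exon lengths are from GENCODE M21 (GRCm38). Named genes are the 10 chosen genes, in each pathway list up to 2 called genes with the largest rise and 2 with the largest fall in a comparison, receptors and transport genes at will, and the 3 nearest courses to the 2 genes of highest joint F. Cpa3, Kit, Hdc, Ptgs2os, Lyz2, Col1a1, Eng, Pdgfrb, Pecam1, Pla2g2e, Akr1c18 and Akr1b7 lie outside this rule and were named after their values were seen. Libraries of the same day differed beyond counting noise (chi-square per degree of freedom 7.22, 8.08 and 28.4 at days 0, 2 and 6). Deviations of same-numbered libraries from their day means correlated across genes at 0.109 (days 0 and 2), 0.112 (days 0 and 6) and 0.213 (days 2 and 6). The steps were tested on simulated data for day 2 against day 0 only. There 53.2% of changes of 1.5-fold, 80% of 2-fold and 97.0% of 4-fold were recovered. Alternatives were other scalings, no filter, DESeq2 1.42.0, only the 4 libraries compared, the replicate number as a block, a test against 1.5-fold, each library left out, and other lengths.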

Additional observations from a re-analysis of the deposited data

How the results depend on the processing

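Each of the 27 comparisons of a tested gene was repeated under 12 alternatives, and 309 of the 324 results kept their direction and their side of the threshold. The other 15 concern 4 comparisons. Ptges3 between day 6 and day 0 missed the threshold with RLE size factors, without a filter, with DESeq2 and without either day 0 library (adjusted p = 0.0638, 0.0627, 0.0949, 0.183 and 0.0666), and with library totals its log2 change was -0.051 (adjusted p = 0.539). Ptgis between day 6 and day 2 was -0.14 with library totals (adjusted p = 0.586), -0.10 without replicate 77 of day 6, and 0.49, past the threshold, without replicate 76. Ptger4 between day 6 and day 2 was 0.55, past the threshold, without replicate 76 of day 6. Hpgds between day 2 and day 0 was lost with DESeq2 (adjusted p = 0.0834), with only the 4 libraries compared (0.0523) and without 3 of the libraries. Leaving out each library gave 8 to 9 called genes at day 2 against day 0, 8 to 9 at day 6 against day 0, 7 to 9 between day 6 and day 2, and 9 by the joint test. With the replicate number as a block the counts were 9, 9, 7 and 9, and it changed no call of these genes. Against a change of 1.5-fold, 7, 8 and 6 were called in the 3 comparisons, where 35.6%, 42.5% and 34.5% of all genes tested were called (5147, 6146 and 4990 genes, against 9704, 10253 and 9501 without that demand).

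With the longest transcript as length, the Ptgs2 share was 30.8%, 46.5% and 7.69% at days 0, 2 and 6, and with no length correction it was 57.4% at day 2. Scaling by library totals moved the median log2 change of all genes by 0.11, -0.25 and -0.36 in the 3 comparisons, and the share of calls that were higher from 50.01%, 50.6% and 58.1% to 57.2%, 37.99% and 37.1%. In the lists, the 8 macrophage markers higher at day 6 than at day 0 became 3 with library totals and 5 with DESeq2. The cause of these changes was not tested, and 2 libraries a day limit every comparison.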
